A study of Mus musculus with 2 samples.

Results

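The genes described here encode parts of the lysosome, the acid compartment in which a cell digests what it takes up. They are 39 genes listed by symbol, of 27998 genes in the count matrices, and each symbol matched 1 identifier in both libraries. They comprise 15 genes of the proton pump, 5 of lysosomal membrane proteins, 8 glycosidases that cut sugars off their substrates, 8 genes of lipid breakdown or lipid transfer, and Tpp1, Grn and Tfeb. All 39 are annotated as protein-coding and all were measured, defined as at least 20 unique molecular identifiers (UMIs, each marking 1 captured RNA molecule) over both libraries.

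The cells were tdTomato-positive cells sorted from the spinal cord of Cx3cr1-CreER::Rosa26-tdTomato mice on a C57BL/6J background. Every mouse received 4-hydroxytamoxifen at postnatal week 4, as 2 injections of 1 mg, and cords were collected 4 weeks later. Recombination marks cells that expressed the fractalkine receptor gene Cx3cr1 when the drug was given, mostly microglia but also other macrophages. One library came from uninjured age-matched cord and the other from cord at day 5 after lysolecithin, a lipid that dissolves myelin, and the number and sex of the animals behind each library are not given in the labels.

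Lysosomal enzymes work only in acid, and the acid is supplied by the vacuolar ATPase, a rotary pump. Its V1 sector on the cytosolic side splits ATP, and its V0 sector in the membrane carries the protons. Glycosidases, lipases, ceramidases and proteases then degrade the cargo, small activator proteins lift lipids out of membranes for them, and the NPC proteins hand freed cholesterol on. Microglia that clear myelin debris send large amounts of galactolipid, sphingolipid and cholesterol down this route. The transcription factor TFEB and its relatives switch on many lysosomal genes together by binding a site built around the letters CACGTG.

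The 695 uninjured cells kept held 2093084 UMIs and the 577 injured cells 3095511, with medians of 3003 and 4396 UMIs per cell and no barcode shared between the libraries. All 10 microglial markers checked were detected in both libraries, at a summed 16212 CPM (UMIs per 1000000 UMIs of the library) in uninjured and 7955 CPM in injured cells. Marker lists of 11 other cell types summed to between 0.646 and 147 CPM, and 13 uninjured and 16 injured cells held 5 or more UMIs of any such list. Cells with Y-linked UMIs and no Xist numbered 235 and 147, and cells with Xist alone 6 and 213, so the libraries differed in the sex of their cells. With 1 library per group there is no replicate spread to set a difference against, and no test was made. Each value describes these libraries, and each 95% interval covers counting error only.

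The promoters of 10 of these genes carry the letters that TFEB recognises, and the stretches around them are shown to mark which members bear this element. RefSeq promoters on GRCm38.p6, from 250 bases before to 50 after the start site, were found for 33 members. Both strands were searched for CACGTG, which reads the same on either, and for TCACGTG, which contains it. TCACGTG was present in 10 of the 33 genes, or 30.3%, against 4.29% of all 27025 genes in the table. For CACGTG the shares were 30.3% and 8.09%, since each of the 16 CACGTG matches in members was preceded by T or followed by A. The stretches read 5′ to 3′ on the gene's strand, with CACGTG and an adjoining T or A in capitals.
Lamp1, chr8:13159080-13159171, plus strand: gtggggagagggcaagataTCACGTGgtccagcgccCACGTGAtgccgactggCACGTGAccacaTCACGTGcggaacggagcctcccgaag
Mcoln1, chr8:3500428-3500499, plus strand: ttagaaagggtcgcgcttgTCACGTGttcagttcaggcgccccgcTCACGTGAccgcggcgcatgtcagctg
Atp6v0b, chr4:117887322-117887385, minus strand: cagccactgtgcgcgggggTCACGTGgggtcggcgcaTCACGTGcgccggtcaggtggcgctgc
Atp6v0d1, chr8:105566042-105566087, minus strand: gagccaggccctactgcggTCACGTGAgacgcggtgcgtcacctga
Atp6v0e, chr17:26676379-26676424, plus strand: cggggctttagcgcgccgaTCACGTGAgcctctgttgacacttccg
Atp6v1a, chr16:44139365-44139410, minus strand: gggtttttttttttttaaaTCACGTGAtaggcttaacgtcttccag
Gla, chrX:134601174-134601252, minus strand: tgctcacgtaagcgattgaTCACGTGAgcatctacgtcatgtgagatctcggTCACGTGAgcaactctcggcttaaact
Gaa, chr11:119267803-119267848, plus strand: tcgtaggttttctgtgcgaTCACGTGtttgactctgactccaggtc
Glb1, chr9:114401010-114401055, plus strand: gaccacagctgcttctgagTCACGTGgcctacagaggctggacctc
Naglu, chr11:101070001-101070046, plus strand: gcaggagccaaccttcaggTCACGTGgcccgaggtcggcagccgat

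Lamp1 had 4 matches, with the CACGTG core beginning 15 to 61 bases before the start. Atp6v0b, Mcoln1 and Gla had 2 each, and in Atp6v0d1 the core began 3 bases before the start. The members with a match and those without had nearly the same median log2 ratio of injured over uninjured CPM, 0.31 for the 10 and 0.27 for the other 23. The ratios ran from −0.28 (Naglu) to 0.61 (Atp6v0e) among the 10 and from −1.08 (Tfeb) to 2.27 (Galc) among the 23. Such ranges widen with the number of genes, so their widths were not compared. Promoters of Atp6v1b2, Atp6v1c1, Atp6v1g1, Atp6v1h, Asah1 and Npc1 were not analysed here.

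Across the whole set the injured library stood slightly higher, with the proton pump, Grn and a few hydrolases above the rest. The 39 genes took 14839 CPM (14675 to 15005) of the uninjured and 17213 CPM (17067 to 17359.8) of the injured library, a 1.16-fold higher sum (log2 0.21, 0.19 to 0.23). Their median log2 ratio was 0.29, against −0.15 over all 9066 measured genes. Ratios above 0 were found for 27 of the 39, and for 3730 of the 9066. By class the median was 0.44 for the proton pump, 0.29 for membrane proteins, 0.18 for lipid genes and 0.06 for glycosidases. For the 3 other members, Tpp1, Grn and Tfeb, it was 0.63. With Galc counted as a glycosidase instead of a lipid gene, the lipid and glycosidase medians were 0.09 and 0.07, and thus nearly equal. Much of the higher sum came from Grn, at 1352 CPM in uninjured and 2562 CPM in injured cells.

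Few members moved far. Only Gusb and Galc reached a 2-fold higher level after injury, 2 of 39 or 5.13%, where 7.22% of all measured genes did. Tfeb alone was at least 2-fold lower, 1 of 39 or 2.56%, against 11.5% of all genes. With edgeR's TMM factors 4 members were 2-fold higher (10.3%, against 8.79% of all genes) and 0 lower (against 8.67%). At a size of 1.5-fold, 9 members were higher (23.1%, against 14.4% of all genes) and 2 lower, Man2b1 and Tfeb (5.13%, against 25.9%). Among genes with at least 100 UMIs, where counting error is smaller, 8 of 36 members were 1.5-fold higher (22.2%, against 12.9%) and 2 lower (5.56%, against 20.7%). With TMM factors, which added 0.15 to every log2 ratio, 16 members were 1.5-fold higher (41%, against 18.7% of all genes) and 2 lower (5.13%, against 20.1%). DESeq2 size factors added 0.19.

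**Figure D1:**
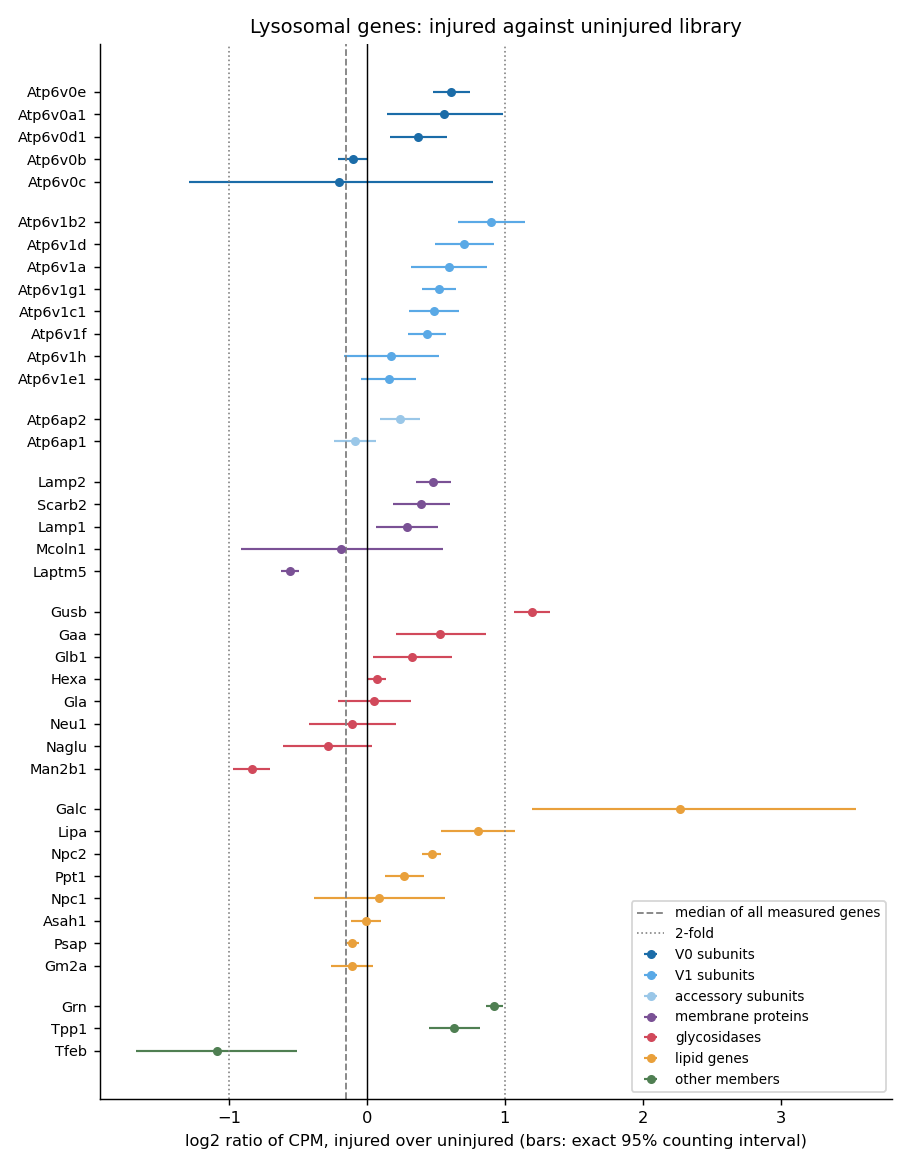
Each point is 1 gene's log2 ratio of CPM, injured over uninjured, with its exact 95% counting interval, grouped by class. The solid line marks 0, the dashed line the median of all measured genes (−0.15) and the dotted lines 2-fold; all 8 V1 subunits lie right of 0, and Galc, Gusb and Tfeb alone lie beyond 2-fold.

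The V1 sector, which holds the ATP-splitting head and the stalk of the pump, was higher in the injured library for all 8 genes measured. Their sum was 1384 CPM in uninjured and 1958 CPM in injured cells (log2 0.50, 0.44 to 0.57). Atp6v1b2, the B subunit of the head found in most tissues, was at 92.7 CPM (80.1 to 107) and 173 CPM (159 to 188), a log2 ratio of 0.90 (0.66 to 1.15). Atp6v1a, the catalytic A subunit that pairs with it, was at 76.0 and 115 CPM (log2 0.59, 0.32 to 0.87). Atp6v1d, of the central stalk that turns inside the head, was at 121 and 197 CPM (0.71, 0.49 to 0.92). These are the 3 V1 genes past 1.5-fold, and no V1 gene was past it in the lower direction.

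The remaining V1 subunits had smaller ratios. The stalk genes Atp6v1g1 (393 and 564 CPM) and Atp6v1c1 (179 and 250 CPM) were at log2 0.52 (0.40 to 0.64) and 0.49 (0.31 to 0.67). Atp6v1f, at the base of the rotor, was at 310 and 419 CPM (0.44, 0.30 to 0.58). For Atp6v1e1 (159 and 177 CPM; 0.16, −0.04 to 0.36) and the regulatory subunit gene Atp6v1h (54.9 and 62.0 CPM; 0.17, −0.17 to 0.52) the counting interval included 0. After thinning every cell to 1500 UMIs, Atp6v1a was at 0.49 and thus below the 1.5-fold size of log2 0.58, while Atp6v1b2 was at 0.97 and Atp6v1d at 0.69. Among cells with Y-linked UMIs alone Atp6v1b2 was at 0.51 and Atp6v1a at 0.45, again below that size, and Atp6v1d at 0.89.

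The V0 sector had ratios on either side of 0. Its 5 genes summed to 1093 CPM in uninjured and 1271 CPM in injured cells (log2 0.22, 0.14 to 0.29), and without Atp6v0b, the V0 gene with the most UMIs, the log2 ratio of the sum was 0.53 (0.43 to 0.64). Atp6v0b encodes a proteolipid of the rotating ring that carries protons through the membrane, and it was at 601 CPM (568 to 635) and 560 CPM (534 to 587), a log2 ratio of −0.10. Atp6v0e, a small membrane subunit, was at 306 and 467 CPM (0.61, 0.48 to 0.75). Atp6v0d1, which couples the ring to the stalk, was at 145 and 187 CPM (0.37, 0.17 to 0.58), and Atp6v0a1, which forms the channels that load and unload the ring, at 34.4 and 50.7 CPM (0.56, 0.15 to 0.98). Of the V0 genes, Atp6v0e alone was past 1.5-fold. With every cell thinned Atp6v0e was at 0.53, and with Y-linked UMIs alone at 0.39, both below the 1.5-fold size.

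Atp6v0c, which encodes the main proteolipid of that ring, had only 14 uninjured and 18 injured UMIs. The annotation holds 2 processed copies of it, Atp6v0c-ps1 and Atp6v0c-ps2, and the labels do not say how reads shared with such copies were counted. Its level and its log2 ratio of −0.20 (−1.29 to 0.92) are therefore uncertain. Of the accessory subunits that help assemble the pump and sort it, Atp6ap1 was at 290 and 274 CPM (−0.08, −0.23 to 0.07) and Atp6ap2 at 292 and 346 CPM (0.24, 0.10 to 0.39).

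Most pump subunit isoforms outside the 39 had too few UMIs to be measured. Of 11 further isoform genes, 2 were measured and both lay below 0. Tcirg1, the a3 subunit of osteoclasts and macrophages, was at 116 and 85.9 CPM (−0.43, −0.69 to −0.18). Atp6v0d2, the osteoclast and macrophage form of the d subunit, had 0 uninjured and 10 injured UMIs, too few to be counted as measured.

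Among the membrane proteins, Laptm5 was lower after injury, Mcoln1 was too scarce to place, and the remaining 3 were higher. Laptm5, a membrane protein of lysosomes in blood-derived cells and microglia, was at 1733 CPM (1677 to 1791) in uninjured and 1178 CPM (1140 to 1216) in injured cells, 1.47-fold lower (log2 −0.56, −0.62 to −0.49). Lamp2 and Lamp1 encode the heavily glycosylated proteins that line the lysosomal membrane. Lamp2 was at 367 and 513 CPM (0.48, 0.36 to 0.61) and Lamp1 at 122 and 150 CPM (0.29, 0.07 to 0.52). Scarb2 encodes LIMP-2, the receptor that brings glucocerebrosidase to the lysosome, and was at 142 and 187 CPM (0.40, 0.19 to 0.60), though with every cell thinned its ratio was 0.06. Mcoln1, a calcium channel of the membrane, had 30 and 39 UMIs and a ratio of −0.19 (−0.91 to 0.55).

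The sum of the 5 membrane genes was lower in the injured library, at 2379 and 2039.7 CPM (log2 −0.22, −0.28 to −0.17), although 3 of the 5 had ratios above 0. Without Laptm5 the sum had a log2 ratio of 0.42 (0.32 to 0.51). Laptm5 stayed between −0.58 and −0.37 under every scaling and cell set tried.

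Glycosidases showed no common direction, with 5 of 8 above 0 and ratios from −0.83 to 1.19. Gusb, the β-glucuronidase that trims glycosaminoglycans, was at 295 CPM (272 to 319) and 675 CPM (646 to 704), 2.29-fold higher (log2 1.19, 1.06 to 1.33). Its 10 richest cells held 8.59% of its uninjured and 8.57% of its injured UMIs, so the UMIs were spread over many cells. With every cell thinned and with per-cell means Gusb was at 0.94 and 0.93, just under 2-fold. Man2b1, the lysosomal α-mannosidase that takes apart N-glycans, was at 481 CPM (451 to 511) and 270 CPM (252 to 289), 1.78-fold lower (log2 −0.83, −0.97 to −0.70). With every cell thinned Man2b1 was at −0.58, marginally under the 1.5-fold size, and Naglu was at −0.81.

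The remaining glycosidases lay closer to 0. Gaa, which digests glycogen, was at 55.9 and 80.8 CPM (0.53, 0.21 to 0.86), and Glb1, the β-galactosidase of ganglioside and keratan sulphate breakdown, at 74.5 and 93.7 CPM (0.33, 0.04 to 0.62). Gla, the α-galactosidase that clears globotriaosylceramide, was at 92.7 and 96.3 CPM (0.05, −0.21 to 0.32). Neu1, the lysosomal sialidase, was at 71.2 and 66.2 CPM (−0.10, −0.42 to 0.21), and Naglu, an enzyme of heparan sulphate breakdown, at 71.2 and 58.5 CPM (−0.28, −0.60 to 0.04).

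Hexa, the α chain of β-hexosaminidase, was at 1273 CPM (1225 to 1323) and 1337 CPM (1297 to 1379), a log2 ratio of 0.07.

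Among the lipid genes the enzymes Galc and Lipa were higher while the activator proteins Psap and Gm2a were close to equal. Galc, the galactosylceramidase that degrades the main galactolipid of myelin, had 8 uninjured and 57 injured UMIs, or 3.82 CPM (1.65 to 7.53) and 18.4 CPM (13.9 to 23.9). The ratio was 4.82-fold (log2 2.27, 1.19 to 3.55), the largest among the 39 and the least precise of those past 2-fold. Oligodendrocytes also make Galc. None of its uninjured and 2 of its injured UMIs came from cells with markers of other cell types, and without those cells its log2 ratio was 2.22. The oligodendrocyte markers summed to 147 CPM in uninjured and 88.2 CPM in injured cells, with 1 of 5, Mog, at 0 in the injured library, and the precursor markers to 3.34 and 32.6 CPM, with 3 of 5 (Cspg4, Ptprz1, Olig1) at 0 in the uninjured one. Their part in the Galc ratio through free RNA was not tested. Without the 10 deepest cells of each library Galc was at 3.21.

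Lipa, the acid lipase that frees cholesterol and fatty acids from lipoprotein lipids, was at 77.4 CPM (65.9 to 90.3) and 135 CPM (122 to 149), 1.74-fold higher (log2 0.80, 0.54 to 1.07). With every cell thinned and with per-cell means it was at 0.54, under the 1.5-fold size. Npc2, which picks up free cholesterol in the lysosome, was at 1229 CPM (1182 to 1277) and 1704 CPM (1658 to 1750), a log2 ratio of 0.47 (0.40 to 0.54). The gene of its membrane partner, Npc1, was at 30.1 and 32.0 CPM (0.09, −0.38 to 0.57), with a wide interval from 63 and 99 UMIs.

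Ppt1, which strips palmitate from proteins, was at 301 and 364 CPM (0.27, 0.13 to 0.42). Its ratio after thinning was −0.04. Asah1, the acid ceramidase, was at 534 and 532 CPM (−0.01, −0.12 to 0.10). Psap, the precursor of the saposins that present sphingolipids to their hydrolases, was at 2969.8 CPM (2896 to 3045) and 2757 CPM (2699 to 2816), a log2 ratio of −0.11 (−0.15 to −0.06) that became 0.04 with TMM factors. Gm2a, the activator that presents GM2 ganglioside to hexosaminidase, was at 292 and 271 CPM (−0.11, −0.26 to 0.04).

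Of the 3 remaining members, Grn and Tpp1 were higher and Tfeb lower in the injured library. Grn encodes progranulin, a secreted and lysosomal glycoprotein whose loss causes a lysosomal storage disease. It was at 1352 CPM (1303 to 1403) in uninjured and 2562 CPM (2506 to 2619) in injured cells, 1.89-fold higher (log2 0.92, 0.86 to 0.98), and its ratio lay between 0.88 and 1.11 under every scaling and cell set tried. Tpp1, a peptidase that removes tripeptides from protein ends, was at 166 and 257 CPM (0.63, 0.45 to 0.82). Thinning left Tpp1 at 0.58 and per-cell means at 0.51, both just under the 1.5-fold size.

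Tfeb itself had 63 uninjured and 44 injured UMIs, or 30.1 CPM (23.1 to 38.5) and 14.2 CPM (10.3 to 19.1), 2.12-fold lower (log2 −1.08, −1.67 to −0.50). With every cell thinned its ratio was −0.56, with per-cell means −0.83, and with Y-linked UMIs alone −2.55. Its relatives Tfe3 (112 and 82.7 CPM) and Mitf (26.3 and 26.8 CPM), which bind the same letters, were at −0.43 (−0.70 to −0.17) and 0.03 (−0.48 to 0.55). Messenger RNA does not show how much of these proteins was in the nucleus.

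**Figure D2:**
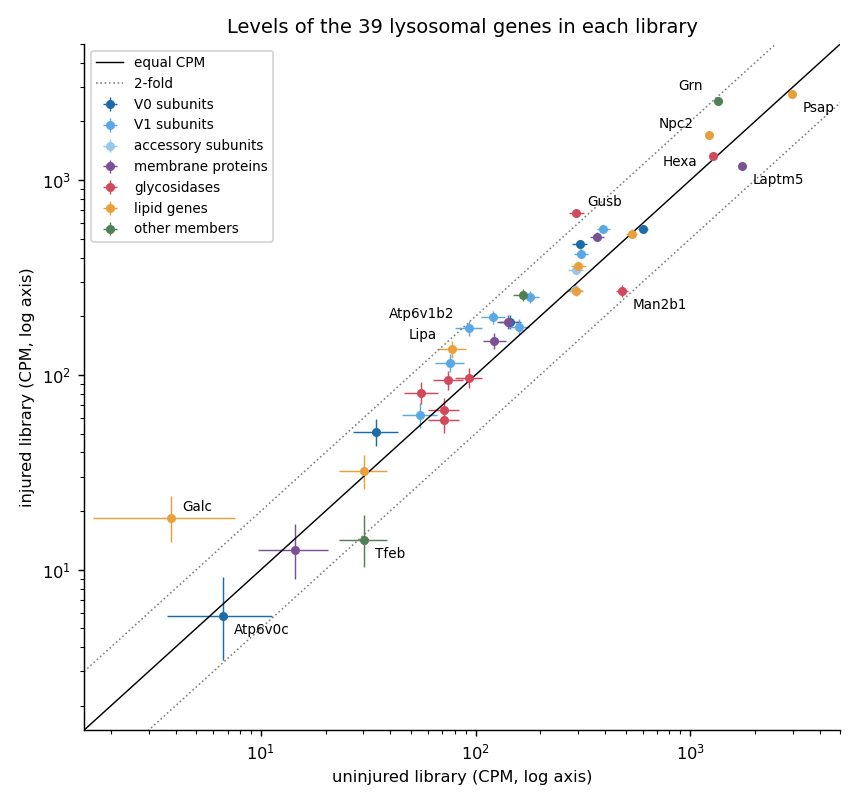
Level of each gene in the uninjured (x axis) and injured library (y axis), in CPM on log axes, with exact 95% Poisson intervals. Most genes lie near or just above the line of equal CPM; Galc and Gusb stand above the upper 2-fold line, Tfeb below the lower one, and Laptm5 and Man2b1 between the lower line and equality.

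In GRCm38, Grn (ENSMUSG00000034708) lies on chromosome 11 at 102430315 to 102437048 and Gusb (ENSMUSG00000025534) on chromosome 5 at 129989011 to 130003049. Galc (ENSMUSG00000021003) lies on chromosome 12 at 98202294 to 98259459, Lipa (ENSMUSG00000024781) on chromosome 19 at 34492318 to 34527474, and Atp6v1b2 (ENSMUSG00000006273) on chromosome 8 at 69088646 to 69113711. Laptm5 (ENSMUSG00000028581) lies on chromosome 4 at 130913125 to 130936141, Man2b1 (ENSMUSG00000005142) on chromosome 8 at 85083270 to 85098282, and Tfeb (ENSMUSG00000023990) on chromosome 17 at 47737030 to 47792419. The span of Grn overlaps Fam171a2, that of Galc overlaps Gm47439 and that of Atp6v1b2 overlaps Slc18a1, each on the opposite strand. The sources used here do not state whether counting used the strand.

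The division of lysosomal UMIs among the classes does not depend on how the libraries were scaled. The lipid genes held 36.6% (36.1 to 37.2%) of the members' UMIs in uninjured and 33.8% (33.4 to 34.2%) in injured cells, and the membrane proteins 16.0% (15.6 to 16.4%) and 11.8% (11.6 to 12.1%). V1 subunits held 9.33% (9.01 to 9.66%) and 11.4% (11.1 to 11.7%), whereas V0 subunits held 7.36% (7.08 to 7.66%) and 7.39% (7.16 to 7.61%). Glycosidases held 16.3% and 15.6%. The shares did depend on depth per cell. With every cell thinned, the injured shares were 34.5% for lipid genes and 12.6% for membrane proteins, outside the intervals given above. Those of the proton pump and the glycosidases stayed inside theirs. The largest shifts came from single genes: Grn went from 9.11% to 14.9% of the members' UMIs and Laptm5 from 11.7% to 6.84%.

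**Figure D3:**
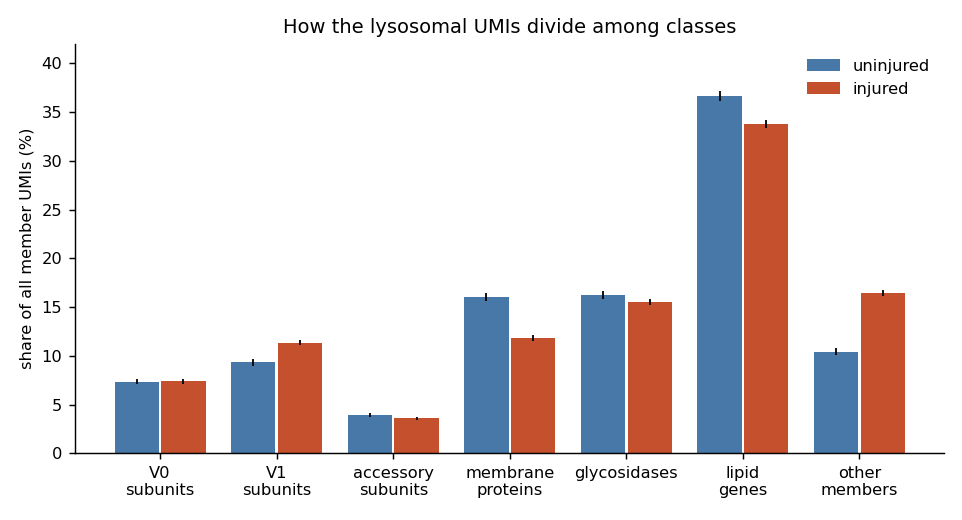
Share of all UMIs of the 39 genes that each class held, in percent, in the uninjured (blue) and injured (orange) library, with exact 95% binomial intervals. Membrane proteins and lipid genes took smaller shares in the injured library, V1 subunits and the other members (Tpp1, Grn, Tfeb) larger ones, and V0 subunits about the same share.

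Other genes of the lysosome were counted in the same way. Of 30 measured hydrolase and other lumen genes outside the set, 4 were at least 1.5-fold higher and 12 at least 1.5-fold lower, with a median log2 ratio of −0.40. Over all measured genes the shares were 14.4% and 25.9%, so the higher count was near that background and the lower count above it. The list summed to 14646 CPM in uninjured and 10361 CPM in injured cells (log2 −0.50, −0.52 to −0.48). Without its gene with the most UMIs the log2 ratio of the sum was −0.17 (−0.22 to −0.12). Dpp7, a dipeptidase, was at 44.0 and 117 CPM (1.41, 1.08 to 1.76), and the phospholipase gene Pla2g15 at 269 and 106 CPM (−1.35, −1.55 to −1.15). Acp5, the tartrate-resistant acid phosphatase of osteoclasts and macrophages, had 0 uninjured and 23 injured UMIs. Against an assumed floor of 3 uninjured UMIs it was 5.18-fold higher (log2 2.37). The lower bound of its counting interval was log2 1.96, and with every cell thinned the ratio to the floor was 1.09. Rnaset2a was at −0.97 (−1.12 to −0.82), but its near-identical copy Rnaset2b makes that value uncertain.

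Of 24 measured membrane genes outside the set, 3 were 1.5-fold higher and 6 lower, shares near the 14.4% and 25.9% of all genes, with a median of −0.33. Cd63, a tetraspanin of late endosomes, was at 530.3 and 2252 CPM (2.09, 1.99 to 2.18), Cd68, a LAMP-family protein of phagocytes, at 683 and 1166 CPM (0.77, 0.68 to 0.86), and the nucleoside transporter gene Slc29a3 at 107 and 44.9 CPM (−1.25, −1.57 to −0.94). The cathepsins and legumain, the lysosomal proteases, took 37483 CPM of the uninjured and 49986 CPM of the injured library (log2 0.42, 0.40 to 0.43). Without Ctsb the log2 ratio of the sum was 0.25 (0.24 to 0.27), and without both Ctsb and Ctsd −0.07 (−0.09 to −0.06). Of 11 measured, 4 were 1.5-fold higher and 2 lower, against the same 14.4% and 25.9% of all genes. Ctsb was at 1.62, Ctsz at 1.02 and Ctsf at −1.17, so these lists also held members on either side.

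Differences in depth per cell were removed by thinning each cell to 1500 UMIs, which left 604 uninjured and 567 injured cells. An uninjured cell then held a median of 22 UMIs of the 39 genes (quartiles 18 and 26, range 6 to 42), and an injured cell 25 (quartiles 20 and 30, range 5 to 57). The uninjured upper quartile of 26 was taken as a cut, a choice that sets the uninjured share in advance. More than 26 such UMIs were found in 20.7% of uninjured cells (125 of 604, 17.5 to 24.1%) and 43.2% of injured cells (245 of 567, 39.1 to 47.4%). These intervals count the cells of 1 library each and cover no spread between animals. The 2 distributions overlapped over most of their range. For the proton pump the median was 5 UMIs in both libraries, with means of 4.68 and 5.61, and for glycosidases 3 and 4, with means of 3.56 and 3.91. For lipid genes it was 8 in both. Without thinning, the median cell gave 1.44% of its UMIs to the 39 genes before injury and 1.66% after it.

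**Figure D4:**
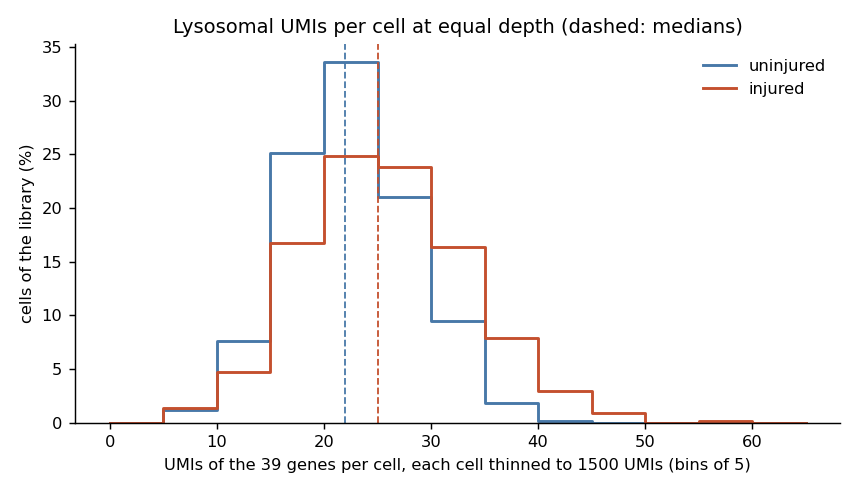
Percentage of cells (y axis) by the number of UMIs of the 39 genes per cell (x axis, bins of 5) after thinning each cell to 1500 UMIs, for 604 uninjured (blue) and 567 injured (orange) cells, with dashed lines at the medians of 22 and 25. The injured distribution is shifted to higher numbers and overlaps the uninjured one.

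The injured cells were then divided by genes outside the set. Gpnmb, a glycoprotein of phagocytic cells, and Spp1, which encodes osteopontin, were scored at 1500 UMIs per cell. That gave 42 cells with a Gpnmb UMI, 394 with Spp1 but no Gpnmb, and 131 with neither. The groups are ranges and not cell types: 24 of the 42 cells had exactly 1 Gpnmb UMI and 120 of the 394 exactly 1 Spp1 UMI. Their median depths were 7649, 4790 and 3653 UMIs, and P2ry12, a marker of resting microglia, was at 341, 723 and 1636 CPM, against 3200.1 CPM in uninjured cells. Cells of these groups come from 1 library, so the values have no test.

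The summed level of the 39 genes was 14909 CPM in uninjured cells and 16683 CPM in injured cells with neither marker. It was 17122 CPM in the Spp1 group and 18890.1 CPM in the Gpnmb group. The log2 ratio of the Gpnmb group over cells with neither was 0.18 (0.13 to 0.23). Of 36 members with enough UMIs in these groups, 7 were at least 1.5-fold higher with Gpnmb (19.4%, against 11.0% of 4069 genes) and 2 lower (5.56%, against 26.0%). Atp6v0c, Mcoln1 and Tfeb had too few UMIs.

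Among the classes, the proton pump stood at 3058 CPM in uninjured cells and already at 3699 CPM in injured cells with neither marker (log2 0.27, 0.20 to 0.35), with 3869.7 CPM and 3988 CPM in the Spp1 and Gpnmb groups. Glycosidases were at 2426 CPM in uninjured cells, 2499.9 CPM with neither (0.04, −0.05 to 0.13), 2684 CPM with Spp1 and 2974 CPM with Gpnmb. Lipid genes were at 5443, 6036, 5675 and 6482 CPM in the same order, with no steady course.

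Lipa had nearly equal levels in uninjured cells and in injured cells with neither marker. It was at 77.9 CPM in uninjured cells and 79.3 CPM in injured cells with neither marker, at 139 CPM with Spp1 and at 205 CPM with Gpnmb. Its ratio of Gpnmb cells over cells with neither was 1.37 (0.79 to 1.97). Gaa stood at 57.3, 59.9, 76.5 and 148 CPM in that order (1.31, 0.62 to 2.01), and Naglu at 71.9, 44.5, 56.5 and 94.7 CPM (1.09, 0.26 to 1.94). For Grn the 4 values were 1379, 2038, 2611 and 3123 CPM (0.62, 0.49 to 0.74), and for Gusb 297, 474, 717 and 723 CPM (0.61, 0.34 to 0.88). Between the Gpnmb and Spp1 groups the log2 ratio was 0.012 (−0.19 to 0.21) for Gusb and 0.26 (0.16 to 0.36) for Grn.

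Laptm5 and Man2b1 ran the other way. Laptm5 was at 1761 CPM in uninjured cells, 1431 CPM with neither marker, 1146 CPM with Spp1 and 982 CPM with Gpnmb (log2 −0.54, −0.74 to −0.35, Gpnmb over neither). Man2b1 was at 484, 373, 249 and 246 CPM (−0.60, −0.998 to −0.21). Lamp1 was at 124, 120, 148 and 212 CPM (0.82, 0.30 to 1.34) and Atp6v1b2 at 95.5, 145, 174 and 218 CPM (0.59, 0.09 to 1.08). Atp6v0a1 counted among the 2 lower genes with 9 UMIs in the Gpnmb group (−1.08, −2.33 to 0.03).

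The calls between the groups depended on how they were set. Set on all UMIs of a cell, the Gpnmb, Spp1 and neither groups held 78, 439 and 50 cells. Of 35 members measured there, 11 were then 1.5-fold higher with Gpnmb (31.4%, against 21.2% of 3819 genes) and 2 lower (5.71%, against 22.4%). Lamp1, at 0.53, and Atp6v0a1, at −0.45, were no longer past that size. Atp6v1c1 (0.66), Atp6ap1 (0.84), Scarb2 (0.68), Ppt1 (0.75), Npc1 (1.02) and, in the lower direction, Gm2a (−0.91) were past it under this setting and not under the first. Atp6v1b2, Gusb, Gaa, Naglu, Lipa, Grn and Man2b1 were past it under both, with Gusb at 1.05 and Man2b1 at −1.09.

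**Figure D5:**
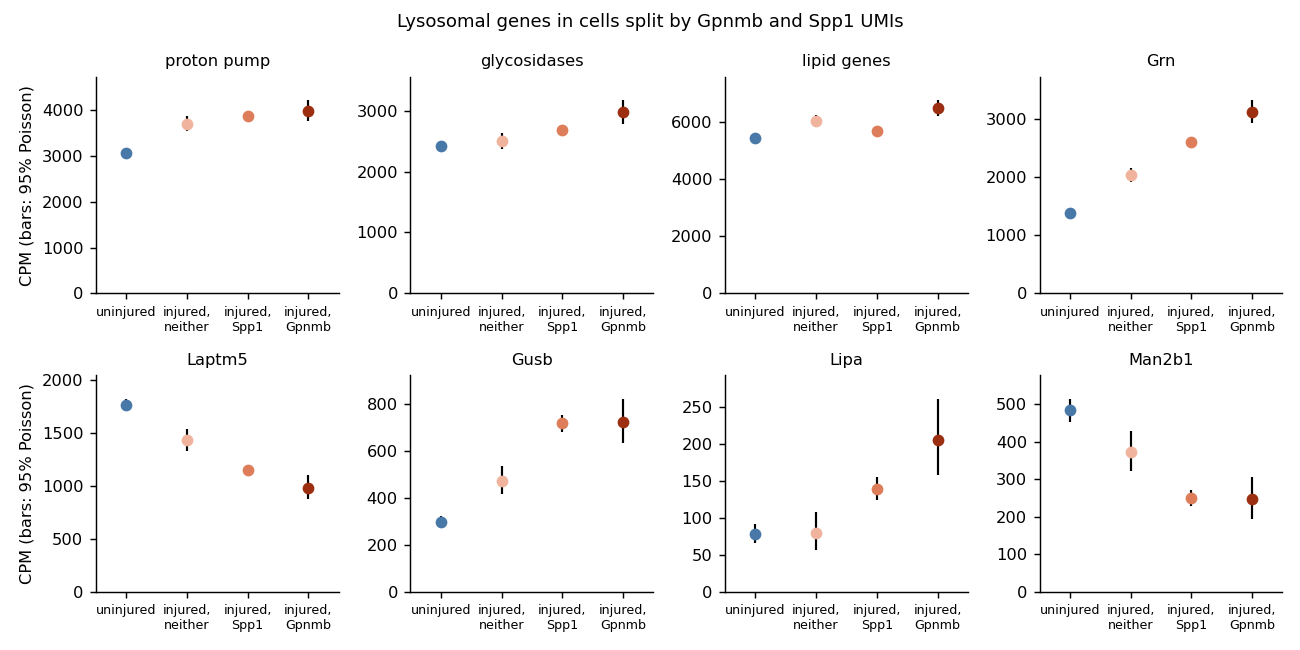
Summed CPM of 3 gene classes and CPM of 5 genes in uninjured cells and in injured cells with neither marker, with Spp1 but no Gpnmb, and with Gpnmb UMIs (points, with exact 95% Poisson intervals; axes start at 0). Grn and Lipa are highest in the Gpnmb group, Laptm5 and Man2b1 are highest in uninjured cells, and the proton pump differs mainly between uninjured and injured cells.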

How the data were processed

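Each library came as a matrix of UMI counts, not normalized, as the authors deposited it. The submitters' processing notes name Cell Ranger 2.0.1, Seurat 2.1.0, STAR and the genome GRCm38.p5 (mm10). Their settings, the annotation and any filter on barcodes: not given in the sources used here. Per the labels, 2500 cells were sorted per library and 705 and 580 recovered, which equals the barcodes in the deposited counts.

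Cells were kept from 200 detected genes upward and up to 10% mitochondrial UMIs. UMIs were summed per library and divided by all its UMIs, giving CPM. Ratios carry exact conditional 95% intervals of 2 Poisson counts, levels exact Poisson and shares exact Clopper-Pearson intervals, all for counting error only. The ratio intervals were checked only on simulated Poisson counts, the model they assume, which hold no spread between cells or animals. A count of 0 was set to a floor of 3 UMIs (1.43 CPM uninjured, 0.969 CPM injured). Doublets were gated by scatter during the sort, per the labels, and no caller was run. Alternatives were TMM factors (edgeR 4.0.16), DESeq2 1.42.0 size factors, per-cell means, thinning, other filters and other cell sets; with 1 library per group neither tool was used for a test. Of each list outside the 39, up to 3 genes were named from those reaching 50 UMIs in either library, those whose interval bound nearest 0 lay farthest from it, plus Tfe3, Mitf and Atp6v0d2. Acp5 was added as a gene with 0 uninjured UMIs, after its values were seen. Members and lists were chosen with earlier results of these data known. Positions are from GENCODE M21 (GRCm38).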

Additional observations from a re-analysis of the deposited data

How the results depend on the processing

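The median log2 ratios of all members (0.26 to 0.48), of the proton pump (0.38 to 0.62) and of lipid genes (0.05 to 0.37) stayed above 0 under every alternative. The glycosidase median ranged from −0.08, with Y-linked UMIs alone, to 0.25. Under TMM factors and DESeq2 size factors the lipid median of 0.18 was 0.33 and 0.37, and the summed log2 ratio of 0.21 was 0.36 and 0.40. Cells bearing Y-linked UMIs alone gave a lipid median of 0.35, and without Psap the summed ratio was 0.28. Members at least 2-fold higher numbered 2, but 4 with TMM (8.79% of all genes) or DESeq2 scaling (9.41%), 1 with per-cell means (6.94%), 0 with every cell thinned (5.53%) and 1 with a minimum of 100 UMIs (5.30%). The 1 member at least 2-fold lower became 0 with TMM (8.67% of all genes), DESeq2 (7.84%), per-cell means (10.0%) and thinning (10.2%). At 1.5-fold the 9 higher members became 16 with TMM (18.7% of all genes) or DESeq2 (20.3%). They were 5 with per-cell means (12.8% of members, against 14.0% of all genes) and 6 of 37 with thinning (16.2%, against 13.4%). Under per-cell means and thinning the higher share was thus near that of all genes. The 2 lower members became 1, Naglu, with thinning (24.8%). After thinning, Galc and Atp6v0c had too few UMIs to be counted. Of members whose counting interval excluded 0, only Psap and Ppt1 changed sign. Psap was at 0.041 with TMM factors and 0.079 with DESeq2 size factors, and Ppt1 at −0.042 with thinning. Members whose interval included 0 also crossed it, such as Atp6v0b, at −0.10 but 0.046 with TMM factors. Members above 0 numbered 27, but 33 with TMM and 34 with DESeq2 scaling, where the all-gene medians were −0.001 and 0.037. The cause was not tested beyond the shift that each scaling adds to every gene. Without cells bearing markers of other cell types, all 39 ratios stayed inside their counting intervals. Depth limits Atp6v0c, Galc, Mcoln1, Tfeb and Npc1, each with fewer than 100 UMIs in both libraries. No paired analysis was possible because each group is 1 library.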

Other observations

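Genes of lysosomal trafficking had ratios on either side of 0. Among 22 measured trafficking genes, 4 stood 1.5-fold or more above the uninjured level and 8 as far below it, with a median log2 ratio of −0.05. Over all measured genes 14.4% and 25.9% were as far above and below. Vps29, of the retromer coat that returns sorting receptors from endosomes, was at 117 and 230 CPM (0.98, 0.77 to 1.19). Vps16, of the tethering complex that fuses endosomes with lysosomes, was at 23.9 and 9.05 CPM (−1.40, −2.12 to −0.71), from 50 and 28 UMIs. Plekhm2, which links lysosomes to kinesin, had 11 and 52 UMIs (1.68, 0.72 to 2.76).

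Of 15 measured genes of nutrient sensing and lysosomal gene control outside the set, 0 were 1.5-fold higher and 3 lower (median −0.14), against the same 14.4% and 25.9%. Lamtor2 and Lamtor3, of the Ragulator scaffold that holds the mTORC1 kinase complex at the lysosome, were at 0.56 (0.35 to 0.78) and 0.58 (0.34 to 0.83). Flcn, the folliculin gene of the same pathway, was at 113 and 66.2 CPM (−0.77, −1.04 to −0.49). These values were not tested, as each group is 1 library.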
